A study of Homo sapiens with 12 samples.

Results

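EDIL3 encodes a secreted matrix protein that binds integrins, and it was taken here together with 9 integrin genes: the alpha subunits ITGAV, ITGA2, ITGA3, ITGA4, ITGA5 and ITGA6 and the beta subunits ITGB1, ITGB3 and ITGB5. These 10 genes, of 18417 measured, were chosen by name. EDIL3 was chosen because it rose most when H2AZ2 was targeted, so its level on the H2AZ2 arrays is given as a description, with no test. The integrins were listed beside it by name, and each gene was read from its brightest probe set with 1 gene symbol, the only such probe set for each of the 10 genes. The samples were RNA of SK-mel147, an established human melanoma cell line, infected with lentiviral short hairpin RNAs and hybridised to 12 arrays of the Affymetrix Human Gene 1.0 ST design. The hairpins sh_37 and sh_38 target H2AZ2 and the hairpins sh_83 and sh_84 target H2AZ1, the genes of the isoforms H2A.Z.2 and H2A.Z.1 of a histone variant that takes the place of H2A in some nucleosomes. The control hairpins were scrambled and luciferase. Each hairpin had 2 arrays, and every group carried a lentiviral hairpin, the controls included. By its title the study concerns how melanoma cells proliferate and respond to drugs. The sample titles call the reagents siRNA and the treatment protocol calls them lentiviral hairpins. The labels of replicate 2 of sh_84 disagree on its hairpin, and its title was used. The labels do not say that replicates came from separate cultures, so a p-value reflects only how far these arrays scatter, and that scatter may be technical.

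Integrins are receptors built from an alpha and a beta subunit that span the cell membrane, bind matrix or cell surface proteins outside and couple to the actin cytoskeleton inside. EDIL3 carries EGF-like repeats, of which 1 holds the RGD motif that the pairs of ITGAV with ITGB3 and with ITGB5 recognise, and discoidin domains that bind phospholipid. It was first described as an endothelial and developmental matrix protein. In melanoma the pair of ITGAV and ITGB3 is known as a mark of the vertical growth phase.

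The promoters of EDIL3 and ITGA6 are shown because these genes had the largest rise and the largest fall among the 10 with the H2AZ2 hairpins. Each is the 250 bases before a RefSeq start on GRCh38.p14, on the strand of the gene, and each gene had 2 listed starts, of which 1 was used. The EDIL3 stretch is chr5:84384881-84385130, minus strand, and the ITGA6 stretch is chr2:172427086-172427335, plus strand. Capitals mark matches to the GC box GGGCGG or the TATA box TATAAA on either strand.
EDIL3: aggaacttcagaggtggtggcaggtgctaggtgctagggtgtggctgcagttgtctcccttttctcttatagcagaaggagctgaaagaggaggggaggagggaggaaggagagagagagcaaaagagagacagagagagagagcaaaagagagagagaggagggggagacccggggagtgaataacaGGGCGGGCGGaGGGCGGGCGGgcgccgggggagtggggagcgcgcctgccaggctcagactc
ITGA6: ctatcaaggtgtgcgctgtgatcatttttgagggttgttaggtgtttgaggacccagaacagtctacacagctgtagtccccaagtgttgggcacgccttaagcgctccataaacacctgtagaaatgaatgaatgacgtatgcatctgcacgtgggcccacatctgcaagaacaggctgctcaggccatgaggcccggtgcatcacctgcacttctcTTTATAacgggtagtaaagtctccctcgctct
The EDIL3 stretch held 4 GC boxes in 2 overlapping pairs between 62 and 42 bases before the start, 9 CpG sites and 61.2% G or C. The ITGA6 stretch held no GC box, 8 CpG sites and 50.8% G or C, and its TATA box letters lay on the opposite strand, 32 to 27 bases before the start. Over 35116 promoters of the same length the median was 11 CpG sites, 42.6% held a GC box and 10.7% the TATA box letters. The AP-1 motif TGANTCA, found in 6.57% of promoters, was in neither stretch, and nor was the TEAD motif CATTCC, found in 11.9%. ITGAV had 18 CpG sites and no match to any of these motifs, and ITGA5 had 12 CpG sites, 1 GC box and 1 TEAD match. The table held a promoter for 8 of the 10 genes.

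The targeted transcripts were checked first. H2AZ2 stood at 9.94 and 9.83 log2 units with sh_37 and at 10.43 and 10.35 with sh_38, against 10.94 to 11.05 in the 4 control arrays, or -1.12 for sh_37 and -0.61 for sh_38 on the log2 scale (SE 0.08 each; limma adjusted p = 1.13e-05 and 0.00204, all arrays below the controls). H2AZ1 stood at 9.79 and 9.94 with sh_83 and at 12.10 and 12.15 in the arrays labelled sh_84, against 12.12 to 12.38 in the controls, so the arrays labelled sh_84 show no measurable loss of H2AZ1. The line was checked against melanoma markers: over the 12 arrays, whose medians reached at most 7.10, the lineage factor SOX10 measured 10.23 to 10.80 and AXL, a receptor of dedifferentiated melanoma, 12.10 to 12.58. The pigment genes PMEL (5.53 to 5.86), MLANA (4.80 to 5.30) and TYR (4.66 to 5.10) lay below the median of every array. The sh_37 minus sh_38 difference of H2AZ2 was -0.50 (SE 0.09, limma adjusted p = 0.00763), and without sh_37 replicate 2 it did not pass (adjusted p = 0.086).

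EDIL3 was high on all 4 arrays with H2AZ2 hairpins and lower on every other array. It measured 11.35 and 11.32 log2 units with sh_37 and 10.92 and 10.87 with sh_38, against 8.55 and 8.41 with the scrambled hairpin and 9.53 and 9.23 with luciferase. The groups did not overlap: the lowest H2AZ2 array stood 1.35 above the highest of all the other arrays. With sh_83 EDIL3 stood at 9.22 and 8.57, and in the arrays labelled sh_84 at 8.27 and 7.80, the lowest pair of the series. The mean was 11.11 ± 0.25 over the H2AZ2 arrays and 8.93 ± 0.53 over the controls (SD, n = 4 each), a log2 difference of 2.19 (SE 0.29), or 4.55-fold. Each hairpin alone gave 5.29-fold (sh_37) and 3.91-fold (sh_38) the control level.

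**Figure D1:**
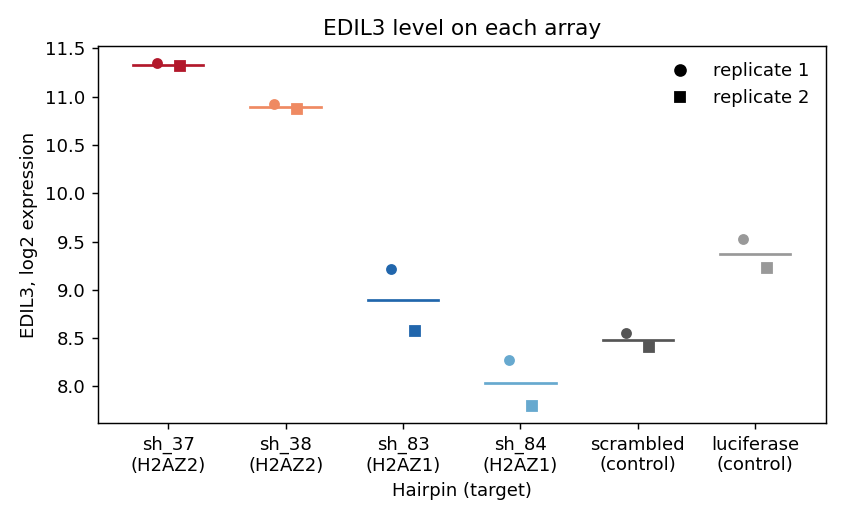
EDIL3 in log2 expression (vertical axis) on each of the 12 arrays, by hairpin (horizontal axis); circles are replicate 1, squares replicate 2 and bars the mean of the 2 arrays. The sh_37 and sh_38 arrays lie between 10.87 and 11.35, and the other arrays lie between 7.80 and 9.53.

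In order of their means the hairpins ran sh_37 (11.33), sh_38 (10.90), luciferase (9.38), sh_83 (8.90), scrambled (8.48) and sh_84 (8.03). No neighbours in this order had overlapping arrays, but the gap between the nearest arrays was 0.0067 from luciferase to sh_83 and 0.0194 from sh_83 to scrambled, against spreads of up to 0.65 between replicates of a hairpin. Only the gap of 1.35 between sh_38 and luciferase exceeded that spread. The step from sh_37 to sh_38 was 0.44 (SE 0.20), given as a description, and both sh_37 arrays lay above both sh_38 arrays.

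The control hairpins differed in EDIL3 by -0.89 for scrambled against luciferase (SE 0.20), the largest difference between the controls among the 10 genes. The control arrays helped choose EDIL3, so this difference is given without a test. No gene of the 18417 passed in limma between the controls, with 7.51% of genes at an unadjusted p under 0.05. EDIL3 rose less with the H2AZ2 hairpins against luciferase alone, by 1.74 log2 units, than against scrambled alone, by 2.63. With sh_83, the hairpin that lowered H2AZ1, EDIL3 differed from the 4 controls by -0.03 (SE 0.18), between -0.48 against luciferase alone and 0.41 against scrambled alone. EDIL3 in the sh_84 arrays stood at -0.90 (SE 0.18) and lay below all 4 controls, at -1.34 against luciferase alone and -0.45 against scrambled alone. These differences for sh_83 and sh_84 rest on the control arrays that helped choose EDIL3, so they are given without a test, and their size depends on which control hairpin is used. Set directly against sh_83, the H2AZ2 hairpins had EDIL3 higher by 2.22 log2 units (SE 0.18), given as a description. EDIL3 was also higher in replicate 1 than in replicate 2 with 6 of 6 hairpins, by 0.03 to 0.65, and ITGA2, ITGA5 and ITGB3 were likewise.

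Markers of fibroblasts, which make much of the matrix in skin, moved in part with EDIL3. Over the list of 10 the mean level per array was 6.13 to 6.28 with the H2AZ2 hairpins, against 5.88 to 6.12 in the controls. In the H2AZ1 arrays it was 5.85 to 6.13, which overlapped the H2AZ2 arrays, and all these means lay below every array median. Of the 10 genes, COL1A1 (0.69) and LUM (1.27) rose with sh_37, in log2 differences from control. LUM rose with sh_38 (0.38) and fell in the arrays labelled sh_84 (-0.85). Of all genes, 5.72% were called higher with sh_37 and 1.28% with sh_38, and 0.342% lower in the arrays labelled sh_84. LUM, a small proteoglycan of collagen matrix, was also lower with scrambled (8.46 and 8.41) than with luciferase (9.14 and 9.25). Over the list of 10 the median difference of scrambled from luciferase was 0.19, the other way. The LUM difference between the controls, -0.76, was larger in size than its rise with sh_38. The part of these genes in the EDIL3 values was not tested.

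Among the receptor subunits known to bind EDIL3, the alpha subunit ITGAV was higher with the H2AZ2 hairpins and the beta subunits ITGB3 and ITGB5 did not pass any test. ITGAV measured 10.44 and 10.58 with sh_37 and 10.24 and 10.22 with sh_38, against 9.90 and 10.07 with scrambled and 9.90 and 10.05 with luciferase. All 4 H2AZ2 arrays lay above all 4 controls, by means of 10.37 ± 0.17 and 9.98 ± 0.09 (SD, n = 4 each). The sh_83 arrays, at 10.16 and 10.10, and the arrays labelled sh_84 lay above all 4 controls too. With the H2AZ2 hairpins ITGAV was 0.39 log2 units higher than in the controls (SE 0.10, limma adjusted p = 0.0401), or 1.31-fold, far smaller than the rise of EDIL3. Of all genes, 3.31% were called in this contrast, 0.863% higher and 2.44% lower, with 17.0% at an unadjusted p under 0.05, and since the contrast chose EDIL3 nothing is read from the count of integrins against it. The calls split 159 higher and 450 lower, and 193 and 325 when the arrays were quantile normalised again.

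The ITGAV call was close to the threshold and was lost in 10 of 23 alternatives. Without luciferase replicate 1 the difference was 0.36 (adjusted p = 0.0979), and without sh_37 replicate 2 it was 0.33 (adjusted p = 0.0972). ITGAV was lost likewise without scrambled replicate 1 (0.187), luciferase replicate 2 (0.0633), sh_37 replicate 1 (0.0765) or sh_84 replicate 2 (0.0544), each value an adjusted p. Without sh_37 as a whole the difference was 0.25 (adjusted p = 0.191). The direction was the same in all 23 alternatives, from 0.25 to 0.53.

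ITGB3, the beta subunit of the vitronectin receptor, stood at 8.40 and 8.26 with sh_37 and 8.25 and 8.03 with sh_38, within the control range of 8.19 to 8.59 except for sh_38 replicate 2. ITGB5, the other beta partner for EDIL3, stood at 10.97, 10.85, 11.09 and 11.05 on the 4 H2AZ2 arrays, inside the control range of 10.81 to 11.19. Their differences from control were -0.13 (SE 0.12, limma adjusted p = 0.612) and -0.08 (SE 0.12, limma adjusted p = 0.771). ITGAV in the arrays labelled sh_84, at 10.27 and 10.28, also lay above all the controls, with a difference of 0.30 (SE 0.08) that did not pass (limma adjusted p = 0.228).

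ITGA6, which pairs with ITGB1 or ITGB4 to bind laminins, was the integrin that fell. It measured 10.45 and 10.48 with sh_37 and 11.16 and 10.92 with sh_38, against 11.29 to 11.35 in the 4 controls, whose SD was only 0.02. All H2AZ2 arrays lay below all controls, the sh_37 arrays by far the most. Over both hairpins ITGA6 differed by -0.57 log2 units (SE 0.13, limma adjusted p = 0.0345), or 0.673-fold. With sh_83 ITGA6 stood at 11.45 and 11.31 and in the arrays labelled sh_84 at 11.47 and 11.37, at or near the control level.

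The call for ITGA6 over both hairpins was lost in 9 of 23 alternatives. It was lost without scrambled replicate 1 (adjusted p = 0.121), luciferase replicate 1 (0.0757) or 2 (0.0736), or sh_37 replicate 1 (0.0707) or 2 (0.0898). Without sh_37 as a whole the ITGA6 difference was -0.29 (adjusted p = 0.139). It was negative in every alternative, from -0.86 to -0.29.

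The partner of most of these alpha subunits, ITGB1, and the fibronectin receptor subunit ITGA5 were higher on every H2AZ2 array than on every control, without passing the test over both hairpins. ITGB1 measured 11.90, 11.86, 11.80 and 11.76 on the sh_37 and sh_38 arrays, against 11.54 to 11.68 in the controls. The ITGB1 difference over both hairpins was 0.21 (SE 0.07, limma adjusted p = 0.15). Both sh_84 arrays, at 11.75 and 11.79, lay above every control for ITGB1 too, and the second lay between the sh_38 arrays. Their ITGB1 difference from control was 0.15 (SE 0.07, limma adjusted p = 0.675), against 0.16 with sh_38. For sh_83 ITGB1 stood at 11.70 and 11.625, the second inside the control range. ITGA5 measured 11.75 and 11.71 with sh_37 and 11.39 and 11.32 with sh_38, against 11.18 to 11.29 in the controls, a difference of 0.31 (SE 0.14, limma adjusted p = 0.27). With sh_83 ITGA5 (11.50 and 11.38) also lay above every control. In the arrays labelled sh_84 ITGA5 was at 10.95 and 10.91, below every other array, with a difference from control of -0.30 (SE 0.08, limma adjusted p = 0.173). Of the 9 integrins, 3 lay wholly above and 1 wholly below the controls on the H2AZ2 arrays, where 11.6% of all genes were wholly apart in either direction, 4.14% above and 7.46% below.

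The remaining alpha subunits did not pass. ITGA4, which pairs with ITGB1 as a receptor for fibronectin and VCAM1, stood at 9.13, 9.02, 9.04 and 8.78 with the H2AZ2 hairpins, against 8.64 to 8.85 in the controls (0.23, SE 0.10, limma adjusted p = 0.245). ITGA2, the collagen receptor subunit, differed by -0.02 (SE 0.13) and ITGA3, a laminin receptor subunit, by 0.08 (SE 0.10). The H2AZ2 arrays of both overlapped the controls. Over the 9 integrins the median difference was 0.077, against 0.028 over all genes.

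**Figure D2:**
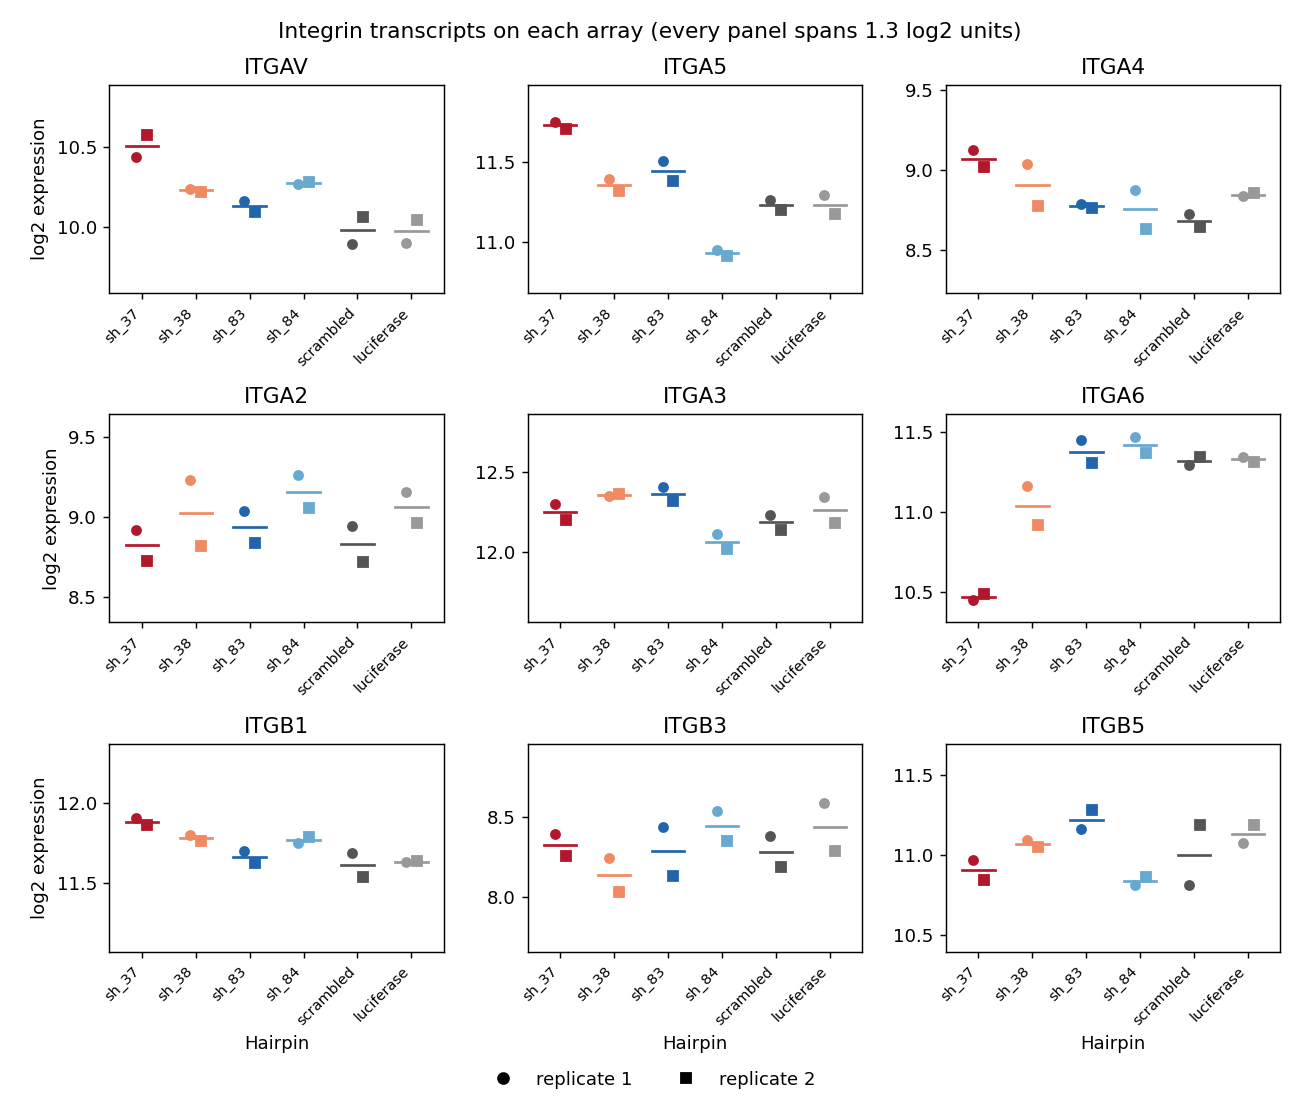
Log2 expression (vertical axes, each spanning 1.3 units) of the 9 integrins on each array by hairpin; circles are replicate 1, squares replicate 2 and bars the mean of the 2 arrays. ITGAV, ITGA5 and ITGB1 are highest with sh_37, and ITGA6 is lowest there, at 10.45 and 10.48.

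Taken hairpin by hairpin, the calls lay with sh_37, the hairpin that left less H2AZ2. Against the controls 4 of 9 integrins passed with sh_37, where 12.9% of all genes were called, 5.72% higher and 7.19% lower. ITGA6 fell by 0.86 (SE 0.09, limma adjusted p = 0.00014), to 0.552-fold. ITGAV rose by 0.53 (SE 0.08, limma adjusted p = 0.00189) and ITGA5 by 0.50 (SE 0.08, limma adjusted p = 0.00164) on the log2 scale. These 3 calls held in all 20 alternatives. ITGB1 rose by 0.26 (SE 0.07, limma adjusted p = 0.0429), a call lost in 13 of 20 alternatives, among them without scrambled replicate 2 (adjusted p = 0.0861), without sh_37 replicate 1 (0.276) or 2 (0.183), and without luciferase replicate 1 (0.071) or 2 (0.0763). It was also lost on leaving out any array of sh_38 (0.0535), sh_83 (0.0696) or sh_84 (0.0664), where the ITGB1 difference itself did not move. ITGA4 stood at 0.31 (SE 0.10, limma adjusted p = 0.0645) and passed in 6 of 20 alternatives.

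With sh_38 none of the 9 integrins passed in limma, where 4.6% of all genes did, 1.28% higher and 3.33% lower. At an unadjusted p under 0.05 it was 2 of the 9 with sh_38, against 5 with sh_37, and 20.1% and 24.4% of all genes. ITGA6 stood at -0.29 (SE 0.09, limma adjusted p = 0.0992), ITGAV at 0.25 (SE 0.08, limma adjusted p = 0.122), ITGB1 at 0.16 and ITGA5 at 0.12. Without sh_38 replicate 1 ITGA6 stood at -0.41 and passed (adjusted p = 0.0479). None passed with sh_83, where 0.641% of all genes did, 0.152% higher and 0.489% lower, and 1 integrin and 10.2% of all genes had an unadjusted p under 0.05. None passed in the arrays labelled sh_84, where 0.353% of all genes did, 0.0109% higher and 0.342% lower, and 2 integrins and 8.36% of all genes had an unadjusted p under 0.05. The largest integrin value with sh_83 was 0.21 for ITGA5 (SE 0.08, limma adjusted p = 0.339).

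The difference between the H2AZ2 hairpins was tested directly, with no control array in it. ITGA6 was lower with sh_37 than with sh_38, at -0.57 log2 units (SE 0.10, limma adjusted p = 0.0072), and ITGA5 was higher by 0.37 (SE 0.09, limma adjusted p = 0.0302). Of all genes 6.27% were called, 4.07% higher with sh_37 and 2.2% lower, and 17.7% had an unadjusted p under 0.05. Both sh_37 arrays lay beyond both sh_38 arrays for each of the 2 genes. The ITGA5 call was lost on leaving out either array of sh_37 (adjusted p = 0.219 and 0.132), sh_38 (0.0699 and 0.173) or sh_84 (0.0516 each). The ITGA6 call was lost without sh_37 replicate 1 (0.0748) or 2 (0.0518) or sh_38 replicate 1 (0.0509). For ITGAV the step was 0.28 (SE 0.10, limma adjusted p = 0.137) and for ITGB1 0.10 (SE 0.09), so no difference between the hairpins was shown there.

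Set against sh_83, the H2AZ2 hairpins had a lower ITGA6, at -0.62 log2 units (SE 0.09, limma adjusted p = 0.00285), with all 4 arrays below both sh_83 arrays. Of all genes 5.23% were called, 2.85% higher and 2.38% lower, and 16.9% had an unadjusted p under 0.05. This call was lost without sh_83 replicate 1 (-0.55, adjusted p = 0.0627). No other integrin of the 9 passed. ITGAV differed by 0.24 (SE 0.08, limma adjusted p = 0.148) and ITGA5 by 0.10 (SE 0.08, limma adjusted p = 0.649), so the higher ITGA5 with sh_37 was not shown to set the H2AZ2 hairpins apart from sh_83.

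**Figure D3:**
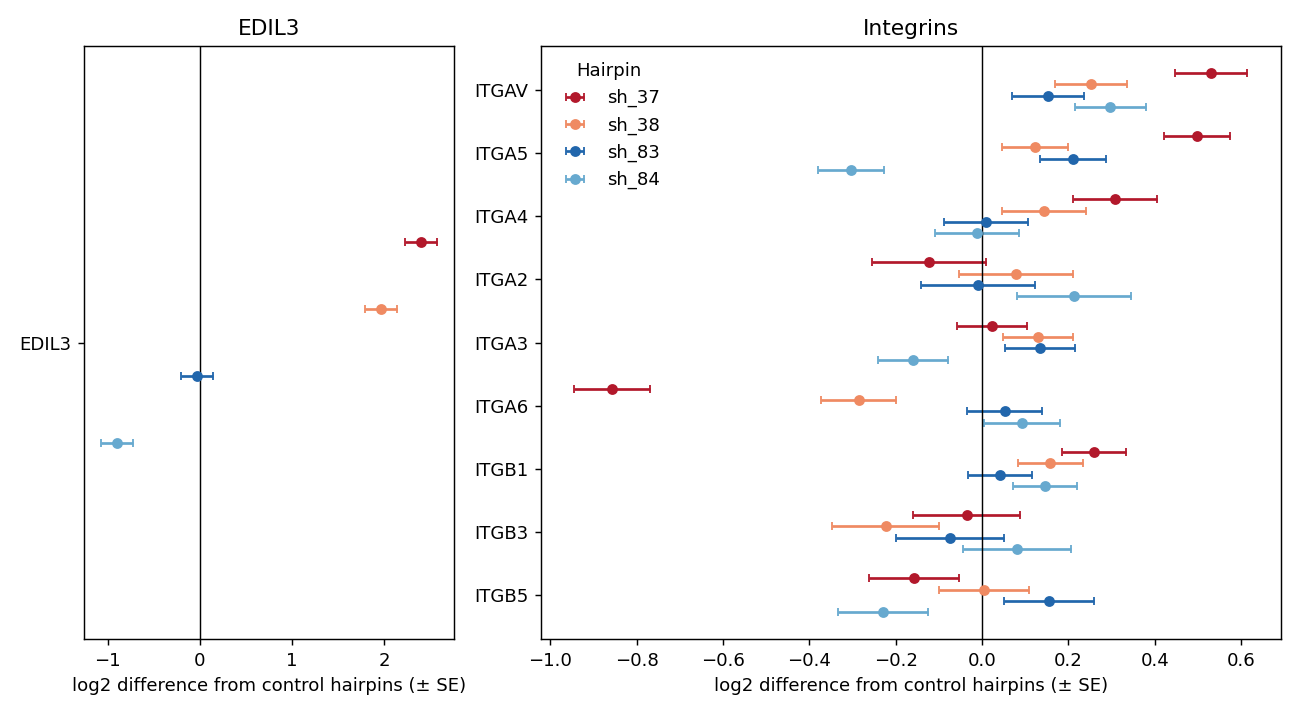
Log2 difference from the 4 control arrays (horizontal axes, with different scales for EDIL3 and the integrins) for each hairpin; points are the fitted differences and bars their SE. EDIL3 lies at 2.40 and 1.97 with sh_37 and sh_38, against -0.03 and -0.90 with sh_83 and sh_84, while the integrins lie between -0.86 and 0.53.

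Of 17 other integrin genes listed, 16 were measured. Apart from ITGB8 their values lay between 4.94 and 7.10 on all arrays, at or below about the median of an array, where a change would be hard to see. None passed with the H2AZ2 hairpins together and 1 had an unadjusted p under 0.05, against 3.31% and 17.0% of all genes. The median difference of these 16 was 0.09. ITGB8, a beta subunit that pairs with ITGAV and activates latent TGF-beta, measured 11.45 and 11.33 with sh_37 and 10.93 and 10.89 with sh_38, against 11.43 to 11.73 in the controls. It fell with sh_38 by 0.64 (SE 0.10, limma adjusted p = 0.0069) and with sh_37 its difference was -0.16 (SE 0.10, limma adjusted p = 0.423). Without sh_38 replicate 2 that fall did not pass (adjusted p = 0.0863). The sh_37 minus sh_38 difference of ITGB8 was 0.48 (SE 0.12, limma adjusted p = 0.0404), a call lost on leaving out any array of sh_37, sh_38 or sh_84 (adjusted p = 0.0505 to 0.285). ITGA9, a receptor subunit for tenascin and osteopontin, had the next largest difference by size in this list, 0.20 (SE 0.11, limma adjusted p = 0.397).

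The ligands of these integrins differed between genes and between the H2AZ2 hairpins. Of 38 listed besides EDIL3, 35 were measured, and 4 rose and none fell with the H2AZ2 hairpins together, where 0.863% of all genes rose and 2.44% fell, with a median difference of 0.137 against 0.028 over all genes. COL4A1, a chain of the type IV collagen of basement membranes, measured 9.04 and 9.01 with sh_37 and 8.46 and 8.49 with sh_38, against 7.77 to 8.01 in the controls (0.91, SE 0.13, limma adjusted p = 0.00482). All 4 H2AZ2 arrays lay above the controls. The COL4A1 call was lost in 2 of 23 alternatives, without the hairpin scrambled and without the hairpin luciferase. COL4A2, its partner chain, rose by 0.42 (SE 0.11, limma adjusted p = 0.0454), a call lost in 13 of 23 alternatives. Of single arrays it was lost without any but sh_38 replicate 1, sh_83 replicate 1 and luciferase replicate 1, at adjusted p-values for COL4A2 from 0.0532 (sh_38 replicate 2) to 0.19 (scrambled replicate 1). CCN3, a matricellular protein that binds integrins, measured 9.85, 9.77, 9.72 and 9.67 on the H2AZ2 arrays, against 8.72 to 9.06 in the controls (0.81, SE 0.16, limma adjusted p = 0.0167), all above the controls. CCN3 rose with sh_83 too, by 0.61 (SE 0.09, limma adjusted p = 0.0218), and the difference of the H2AZ2 hairpins from sh_83 was 0.20 (SE 0.09, limma adjusted p = 0.317). The rise of CCN3 with sh_83 was lost without sh_83 replicate 1 (adjusted p = 0.134) or 2 (0.31) or luciferase replicate 1 (0.0602) or 2 (0.0712). Against luciferase alone the CCN3 rise with sh_83 did not pass either. ADAM23, a membrane protein that binds the pair of ITGAV and ITGB3, rose by 0.64 with the H2AZ2 hairpins (SE 0.13, limma adjusted p = 0.0198). The calls of CCN3 and ADAM23 over both hairpins were lost in 4 and 5 of 23 alternatives, among them without scrambled replicate 1 for CCN3 (adjusted p = 0.0873) and for ADAM23 (0.0892), and without sh_37 replicate 2 for ADAM23 (0.0533).

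Of the ligands named whatever their values, MFGE8 is the closest relative of EDIL3, with the same RGD and discoidin plan. It measured 11.45 and 11.38 with sh_37 and 10.81 and 10.74 with sh_38, against 10.48 to 10.62 in the controls. MFGE8 rose with sh_37 by 0.87 (SE 0.08, limma adjusted p = 7.6e-05) and stood at 0.24 with sh_38 (SE 0.08, limma adjusted p = 0.135), and the hairpins differed by 0.64 (SE 0.09, limma adjusted p = 0.00239). Over both it did not pass (0.55, SE 0.16, limma adjusted p = 0.0862).

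FN1, fibronectin, the ligand of ITGA5 with ITGB1, moved in opposite directions with the H2AZ2 hairpins. It measured 12.51 and 12.48 with sh_37 and 11.27 and 11.10 with sh_38, against 11.54 to 11.78 in the controls, so that the sh_37 arrays lay above and the sh_38 arrays below every control. FN1 rose with sh_37 by 0.83 (SE 0.08, limma adjusted p = 0.000115) and fell with sh_38 by 0.48 (SE 0.08, limma adjusted p = 0.00846), a difference of 1.31 between them (SE 0.09, limma adjusted p = 3.93e-05). The fall of FN1 with sh_38 was lost without sh_38 replicate 2 (adjusted p = 0.134). Against scrambled alone that fall did not pass either. ITGA5, the receptor subunit for FN1, was higher with sh_37 as given above and stood at 0.12 with sh_38.

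SPP1, osteopontin, an RGD ligand of ITGAV pairs, measured 9.66 and 9.54 with sh_37, 8.92 and 8.83 with sh_38 and 10.36 and 10.35 with sh_83, against 9.69 to 9.90 in the controls. It fell with sh_38 by 0.91 (SE 0.08, limma adjusted p = 0.00047) and rose with sh_83 by 0.57 (SE 0.08, limma adjusted p = 0.0138), a rise lost without sh_83 replicate 1 (adjusted p = 0.261) or 2 (0.191). Against luciferase alone the rise of SPP1 with sh_83 did not pass either. The H2AZ2 hairpins and sh_83 differed by -1.12 in SPP1 (SE 0.08, limma adjusted p = 7.37e-05). VTN, vitronectin, TNC, tenascin, and THBS1, thrombospondin, did not pass in any contrast, with differences of 0.02, 0.01 and -0.06 for the H2AZ2 hairpins together.

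By hairpin, sh_37 had 13 of the 35 ligands higher and 1 lower, where 5.72% of all genes were higher and 7.19% lower. With sh_38 3 were higher and 2 lower, against 1.28% and 3.33% of all genes. With sh_83 2 were higher, against 0.152% of all genes. The arrays labelled sh_84 had none of either, with 7 at an unadjusted p under 0.05, against 0.353% and 8.36% of all genes. Laminin chains were among those that rose with sh_37, the laminins being the ligands of ITGA3 and ITGA6. LAMB1 stood at 0.51, LAMB2 at 0.43 and LAMC1 at 0.60, while LAMB3 fell by 0.32 on the log2 scale with the same hairpin. Others that rose were the fibrillin gene FBN1 (0.99), L1CAM (0.65), ICAM1 (0.50) and COL1A1 (0.69). These names were taken after their values were seen. In the direct test 9 ligands were higher with sh_37 than with sh_38, as were 4.07% of all genes, and none was lower. COL4A1 was 1 of these 9, at 0.55 (SE 0.09, limma adjusted p = 0.00535), and did not pass without sh_37 replicate 1 (adjusted p = 0.0639).

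**Figure D4:**
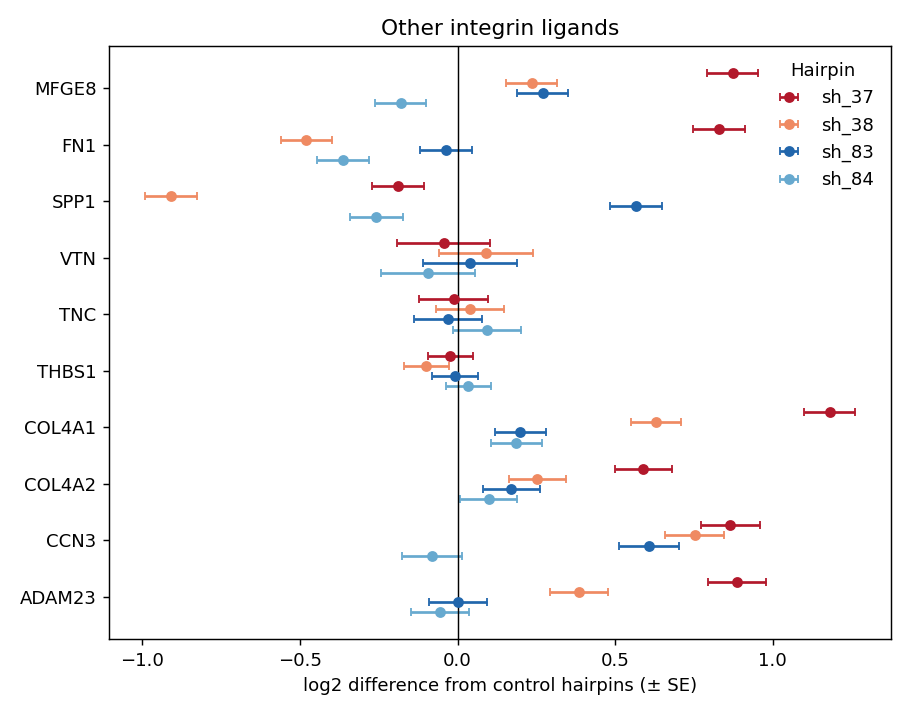
Log2 difference from the 4 control arrays (horizontal axis) of 10 other integrin ligands for each hairpin; points are the fitted differences and bars their SE. FN1 lies at 0.83 with sh_37 and at -0.48 with sh_38, while VTN, TNC and THBS1 stay near 0 with each hairpin.

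Inside the cell, the adaptors that join integrins to actin were not called with the H2AZ2 hairpins together. In limma it was 0 of 41 measured of 45 listed, with 5 at an unadjusted p under 0.05, against 3.31% and 17.0% of all genes. The largest values there were FERMT1, a kindlin that activates integrins, at -0.48 (SE 0.15, limma adjusted p = 0.104) and KANK1, a talin-binding protein at the rim of adhesions, at -0.38 (SE 0.12, limma adjusted p = 0.112). Without scrambled replicate 2 both passed, FERMT1 at an adjusted p of 0.0318 and KANK1 at 0.0315. With sh_37 alone, 5 of the 41 adaptors rose and 1 fell, a share near the 12.9% of all genes called with that hairpin, so the count is no result about the group. ENAH, an actin assembly factor, stood at 0.70, TNS3, a tensin, at 0.89, NEDD9, a scaffold known in melanoma invasion, at 0.47, and the kinase ILK and its partner LIMS1 at 0.30 and 0.27, with SORBS3, vinexin, at -0.37. In the arrays labelled sh_84, PIP5K1C, a kinase that makes the lipid which recruits talin, fell by 0.63 (SE 0.08, limma adjusted p = 0.0121).

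Of 19 membrane partners measured of 20 listed, 0 passed in limma with the H2AZ2 hairpins together and 5 had an unadjusted p under 0.05. Of all genes it was 3.31% and 17.0%. LRP1, an endocytic receptor that takes up matrix proteins and integrins, measured 10.48 and 10.13 with sh_37 and 9.32 and 9.04 with sh_38, against 8.74 to 9.08 in the controls. It rose with sh_37 by 1.41 (SE 0.17, limma adjusted p = 0.000401) and stood at 0.29 with sh_38 (SE 0.17, limma adjusted p = 0.357), and the sh_37 minus sh_38 difference of LRP1 was 1.12 (SE 0.20, limma adjusted p = 0.0068), a call lost without sh_37 replicate 1 (adjusted p = 0.0868) or sh_38 replicate 2 (0.0575). CAV1, caveolin, CD44, the hyaluronan receptor, and PLAUR, the urokinase receptor, fell with sh_37 by 0.32, 0.30 and 0.35. CD9, a tetraspanin, stood at -0.29 (SE 0.15, limma adjusted p = 0.352) over both H2AZ2 hairpins. With sh_83 the tetraspanin CD82 rose by 0.74 (SE 0.08, limma adjusted p = 0.00324).

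The genes whose pattern was most like that of EDIL3, by Pearson's r over the 12 arrays and all genes, were LRRC17 (0.987), SERPINH1 (0.986), CRISPLD2 (0.978), PLXNB2 (0.973) and CDH6 (0.971). The 12 arrays fall into 4 with high and 8 with low EDIL3, and they share the hairpins, so these values describe the ordering and carry no test. SERPINH1, a chaperone of collagen, measured 11.02, 10.98, 11.01 and 11.04 on the H2AZ2 arrays, against 10.16 to 10.54 in the controls. CDH6, a cadherin with an RGD motif that binds integrins, measured 8.60, 8.29, 8.08 and 8.08, against 6.90 to 7.52. CRISPLD2, a secreted protein, measured 9.003, 8.61, 8.20 and 8.25, against 6.48 to 7.17. LRRC17, with leucine-rich repeats, measured 7.39, 7.52, 7.09 and 6.99, against 5.85 to 6.38. PLXNB2, a semaphorin receptor, measured 11.49, 11.32, 11.26 and 11.21, against 10.75 to 10.98. For each of these 5 genes the mean with scrambled was lower than with luciferase, and the mean of the arrays labelled sh_84 was the lowest of the 6 hairpins. EDIL3 has the same order, and the 5 genes were picked for their likeness to it. This order and the higher H2AZ2 arrays are what that choice favours, and are no separate result.

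**Figure D5:**
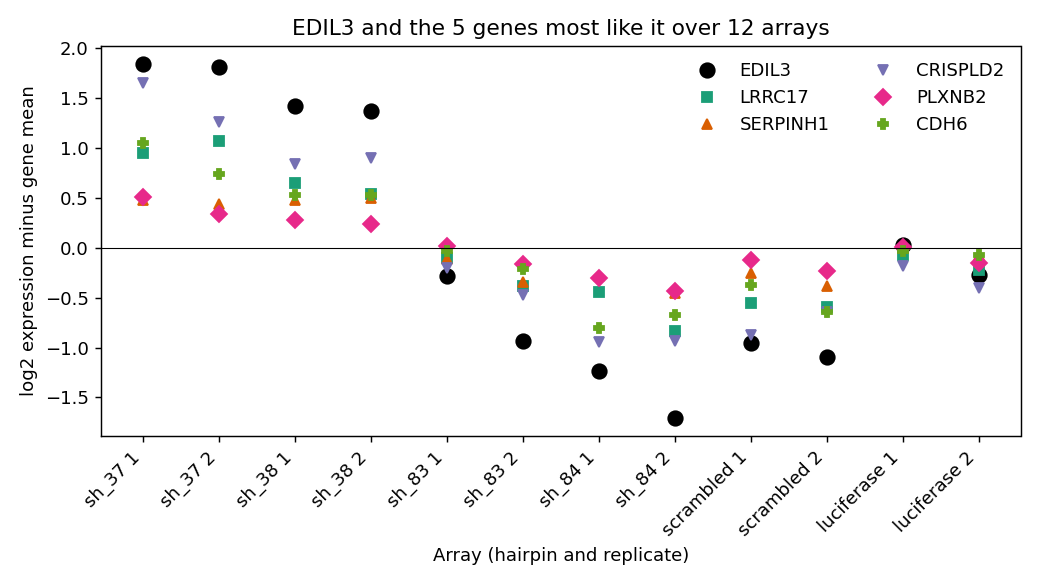
EDIL3 and the 5 genes with the highest Pearson's r to it, each as log2 expression minus its mean over the 12 arrays (vertical axis), by array (horizontal axis). For each gene the 4 arrays with H2AZ2 hairpins lie above 0 and above the 4 control arrays.

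None of the 3 measured neighbours of EDIL3 on chromosome 5 passed the test. The 2 nearest protein-coding genes on the side of lower coordinates are HAPLN1 and VCAN, which encode a link protein and the proteoglycan it joins to hyaluronan, and on the other side lie COX7C, a respiratory chain subunit, and RASA1. With the H2AZ2 hairpins VCAN differed from control by -0.16 (SE 0.11, limma adjusted p = 0.478), HAPLN1 by 0.15 (SE 0.10, limma adjusted p = 0.473) and COX7C by -0.05 (SE 0.09, limma adjusted p = 0.798). HAPLN1 lay at 4.01 to 4.54 on all arrays, below every array median, where a change would be hard to see. RASA1 was not analysed here, since no probe set named it alone.

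Markers of the melanoma cell state moved with some of these results. Of 8 melanocyte genes measured of 10 listed, PAX3 fell with sh_37 (-0.40) and with sh_38 (-0.57), and SOX10 fell by 0.30 with sh_37, at the threshold (limma adjusted p = 0.05). Of all genes, 7.19% were called lower with sh_37 and 3.33% with sh_38. The mean level of the melanocyte list per array was 6.60 to 6.64 with the H2AZ2 hairpins, against 6.66 to 6.71 in the controls and 6.53 to 6.70 in the H2AZ1 arrays. Of 8 genes of the dedifferentiated state, AXL (-0.32), EGFR (-0.44), FOSL1 (-0.46) and NT5E (-1.52) fell with sh_37 and none fell with sh_38. The means of this list were 10.27 to 10.62 with the H2AZ2 hairpins, against 10.64 to 10.70 in the controls and 10.51 to 10.77 in the H2AZ1 arrays. Keratinocyte and endothelial markers had no called gene in any of the 8 contrasts, and of 8 leukocyte markers CD68 and LYZ fell with sh_37. Their part in the EDIL3 and integrin values was not tested.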

How the data were processed

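The deposited log2 expression values per probe set are the authors' RMA output, per the submitters' processing notes. The software, its version and any filter were not given in the sources used here. Of 33297 probe sets, 19460 carried a lone gene symbol in GEO's annotation of the platform, and the brightest per gene gave 18417 genes. No further normalization was applied. Batches by scan could not be tested, and how far a signal stood over its background is not known, since scan dates and background values were not used here. The 2 arrays per hairpin limit the precision.

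The H2AZ2 hairpins were tested against the controls with limma 3.58.1 in R 4.3.3, with 3 targets and the hairpin as a random block (correlation 0.157, 9 residual degrees of freedom). The other 7 contrasts came from a fit with 6 hairpins as groups (6 residual degrees of freedom), which ignores the spread between hairpins of a target. P-values were Benjamini-Hochberg adjusted over all genes and called at 0.05. The members and gene lists were chosen with earlier results of these data known. Named genes are the 10 members, the targeted genes, 6 ligands (MFGE8, FN1, VTN, SPP1, TNC, THBS1), the called genes of each other list for H2AZ2 against control (at most 5, or the 2 largest where none was called), and the 5 genes most like EDIL3. The 3 measured neighbours of EDIL3 were added by position, which makes 36 genes; genes named from single hairpins and the markers singled out were named after their values were seen. Alternatives covered the replicate and hairpin blocks, each array and hairpin left out, each control hairpin alone, leaving out the dimmest 25% of genes, centring on medians, quantile normalization and a variance trend. Promoters came from RefSeq, GRCh38.p14. Figures were drawn with matplotlib 3.10.9.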

Additional observations from a re-analysis of the deposited data

Results flagged for a closer look

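Among 36 named genes, in 108 groups of 4 arrays of a target, 6 groups held an array whose gap to its nearest neighbour was over Dixon's 95% critical share of the range; chance gives about 1 in 20. On the H2AZ2 arrays these were H2AZ1 at 11.97 in sh_37 replicate 1 (the others 12.09 to 12.11), ITGA9 at 6.60 in sh_38 replicate 2 (the others 6.24 to 6.29) and CD9 at 8.78 in sh_38 replicate 2 (the others 9.26 to 9.31). On the control arrays luciferase replicate 1 stood apart for COL4A1 at 8.01 (the others 7.77 to 7.81) and for COL4A2 at 9.28 (the others 9.001 to 9.02). ADAM23 stood at 7.34 in sh_83 replicate 1, against 7.22 to 7.23 in the other H2AZ1 arrays.

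EDIL3 and the 5 genes most like it were chosen by their values and are left out of the counts that follow. Of the other named genes, 10 differed between the H2AZ2 hairpins by a direct limma test, where 6.27% of all genes were called. In log2 differences of sh_37 minus sh_38, ITGA5 stood at 0.37, ITGA6 at -0.57, the targeted gene H2AZ2 at -0.50, MFGE8 at 0.64, FN1 at 1.31, SPP1 at 0.72, ITGB8 at 0.48, COL4A1 at 0.55, ADAM23 at 0.50 and LRP1 at 1.12. Adjusted p-values ran from 3.93e-05 for FN1 to 0.0404 for ITGB8. Against sh_83, the H2AZ2 hairpins differed in 6 genes: ITGA6 (-0.62), H2AZ1 (2.20), H2AZ2 (-0.79), SPP1 (-1.12), COL4A1 (0.71) and ADAM23 (0.63). Of all genes 5.23% were called there. H2AZ1 and H2AZ2 are the targeted genes themselves. COL4A1 and ADAM23 were named for passing against the controls on the same H2AZ2 arrays, a choice that favours a difference here. ADAM23 did not pass between the H2AZ2 hairpins without sh_37 replicate 1 (adjusted p = 0.201) or sh_38 replicate 2 (0.139), or against sh_83 without sh_83 replicate 2 (0.0788).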

How the results depend on the processing

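No value of the 10 genes that passed a test changed direction. Over 1570 recomputed values of these genes, 42 called values no longer passed and 15 uncalled ones passed. Of those 15, 6 were EDIL3 in the arrays labelled sh_84, which is given without a test, so nothing is read from them. A further 63 uncalled values changed sign, all under 0.21 in size in the report's setting. Among them EDIL3 with sh_83 went from -0.03 in that setting to 0.41 against scrambled alone. For the H2AZ2 hairpins against control, 2 integrins were called, against 1 with the replicate block (ITGAV lost, adjusted p = 0.0547), 1 on quantile normalising again (ITGA6 lost, adjusted p = 0.0554) and 0 without the hairpin sh_37, scrambled or luciferase; 1 array left out gave 0 to 2. All genes called there numbered 609, against 957 with no hairpin block, 1681 without sh_38, 43 without scrambled and 14 without luciferase, and 66 to 847 with 1 array left out. The integrin count ranged over 3 to 4 (sh_37), 0 to 1 (sh_38), 0 to 2 (sh_37 against sh_38) and 0 to 1 (H2AZ2 hairpins against sh_83) with 1 array left out, and stayed 0 with sh_83, sh_84 and between the controls. With a variance trend 1 integrin was called with sh_38 (ITGA6) and 1 in sh_84 (ITGA5, -0.30, adjusted p = 0.0246). Genes called with 1 array left out ranged over 922 to 2510 for sh_37, 148 to 1431 for sh_38, 6 to 111 for sh_83, 2 to 54 for sh_84, 393 to 1238 for sh_37 against sh_38 and 150 to 1071 for the H2AZ2 hairpins against sh_83, and 0 in each case between the controls. Against scrambled alone 468 genes were called for sh_38, 50 for sh_83 (118 in the report's setting) and 1 for sh_84 (65), and against luciferase alone 116 for sh_84. For sh_83, centring gave 74 and a variance trend 281. For sh_84, the replicate block gave 113, the filter on dim genes 114 and a variance trend 177. Replicate numbers were not used as pairs in the report's setting. Over 15 pairs of hairpins the correlation across genes of replicate 1 minus 2 ran from -0.47 to 0.68 (median 0.145), over 0.1 in 9, so these values do not settle whether replicates were paired. Apart from ITGAV the replicate block changed, among the 9 integrins, the call of ITGA4 with sh_37 (0.31, adjusted p = 0.0305). The cause of these changes was not tested.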
